A study of Mus musculus with 235 samples.

Results

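Ttr and 6 genes that accompany it in choroid plexus epithelium (Enpp2, Folr1, Clic6, Kl, Sostdc1 and Igf2) were followed through every library of a study of the mouse brain response to dexamethasone, a synthetic glucocorticoid. The 7 genes were taken by their symbols from the deposited count table, in which each symbol matched 1 row, and they are 7 of its 27998 genes. All libraries were used. They came from 30 adult male C57Bl/6 mice aged 3 months: the DEX group of 15 animals received 10 mg/kg dexamethasone by intraperitoneal injection, the CNTRL group of 15 received 0.9% saline in the same way, and brains were taken after 4 h. The labels name no genotype other than the strain. After perfusion, 8 regions were punched from coronal sections and are named here as the labels write them: dDG and vDG, dCA1 and vCA1, AMY, PFC, PVN and CER. There were 15 libraries in each group of a region, except 13 for DEX in dCA1 and 14 for DEX in PFC and for CNTRL in PVN and vCA1.

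Choroid plexus is a folded epithelium that hangs in the brain ventricles and secretes cerebrospinal fluid. It lies beside several brain structures, so a punch that touches a ventricle can carry some of it along. Its epithelial cells make Ttr (transthyretin, the carrier of thyroxine and retinol) in very large amounts, and they also secrete Igf2 (a growth factor that is also made by the leptomeninges), Enpp2 (autotaxin, the enzyme that makes lysophosphatidate, also made by oligodendrocytes) and Sostdc1 (an inhibitor of BMP and Wnt ligands). On their surface they carry Folr1, the receptor that moves folate into the brain, and Kl (klotho, the coreceptor for an FGF hormone, also present in neurons). Clic6 belongs to the intracellular chloride channel family. The comparisons below address which punches held plexus RNA, how the 7 genes moved together, and what difference between DEX and CNTRL was left when the plexus RNA was taken into account.

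On mm10, Ttr (ENSMUSG00000061808) lies on chromosome 18 from 20665250 to 20674324, plus strand. Enpp2 (ENSMUSG00000022425) lies on chromosome 15 from 54838898 to 54920146, minus strand, and Folr1 (ENSMUSG00000001827) on chromosome 7 from 101858331 to 101870788, minus strand. Clic6 (ENSMUSG00000022949) spans chromosome 16 from 92485736 to 92541243, plus strand. Kl (ENSMUSG00000058488) spans chromosome 5 from 150952607 to 150993817, plus strand. Sostdc1 (ENSMUSG00000036169) spans chromosome 12 from 36314169 to 36318452, plus strand, and Igf2 (ENSMUSG00000048583) chromosome 7 from 142650766 to 142666816, minus strand. Ttr shared 11 exon bases with the antisense gene Gm16090, which held 6 counts in all libraries together, and Igf2 shared 98 exon bases with Igf2os, also antisense, which held 45. Whether the counting used the strand is not given in the sources used here.

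The smallest library held 268538 counts, the largest 1451422 and the median one 742957. The kit reads the 3' end of transcripts and the counts are of molecular tags, so a level is given as CPM (counts scaled to a fixed library total) and is compared between libraries, not between genes. A count of 3 corresponded to between 2.07 and 11.2 CPM, depending on the library, and this is the level under which a gene counted at 0 could still lie, for counting error only. The libraries of a group came from separate animals. In punched tissue, fewer plexus cells and less RNA per plexus cell cannot be told apart.

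Promoter sequence was at hand for Kl and Igf2 from RefSeq (GRCm38.p6). It is shown because AGAACA or its reverse complement TGTTCT, the motif to which 1 subunit of the glucocorticoid receptor binds, lies upstream of a listed start of each gene, and both were measured under a glucocorticoid. The windows below are chr5:150952436-150952561 on the plus strand for Kl and chr7:142666836-142666961 on the minus strand for Igf2, written 5′ to 3′ with the motif in capitals.
Kl: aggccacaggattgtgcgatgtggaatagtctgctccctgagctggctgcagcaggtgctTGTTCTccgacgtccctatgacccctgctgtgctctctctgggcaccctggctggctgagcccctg
Igf2: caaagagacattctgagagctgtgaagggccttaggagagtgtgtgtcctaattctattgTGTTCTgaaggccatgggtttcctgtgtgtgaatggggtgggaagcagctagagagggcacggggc
The motif began 111 bases before the start in Kl and 85 bases before it in Igf2. Searched on both strands, these 6 letters were in 2 of the 5 listed windows of Kl and Igf2, the 2 shown, and in 19.0% of the 32851 mouse promoter windows in the same table, so a match is common and is a description only. The 3 other motifs were searched in the same way. TAATCC, the core of OTX2 sites, was in 7.06% of all windows and in 1 of the 5 listed windows of Kl and Igf2 together, while the RFX motif GTTGCC (12.5% of all windows) and the FOX motif TGTTTAC (3.65%) were in none of the 5. Ttr, Enpp2, Folr1, Clic6 and Sostdc1 were not searched here.

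Ttr marked a minority of the punches. It had at least 1 count in every library, and its level ran from 11.0 CPM in a CER library to 13059 CPM in a dDG library. In 135 libraries it was under 50 CPM, and in 21 it was above 1000 CPM. Of these 21 plexus-rich libraries, 11 were from dDG (8 CNTRL and 3 DEX), 5 from dCA1 (2 CNTRL and 3 DEX), 2 from AMY (1 of each), 2 from vDG (both DEX) and 1 from vCA1 (CNTRL). No CER, PFC or PVN library reached that level, and the highest Ttr in those regions was 141.0, 101.0 and 299.4 CPM.

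**Figure D1:**
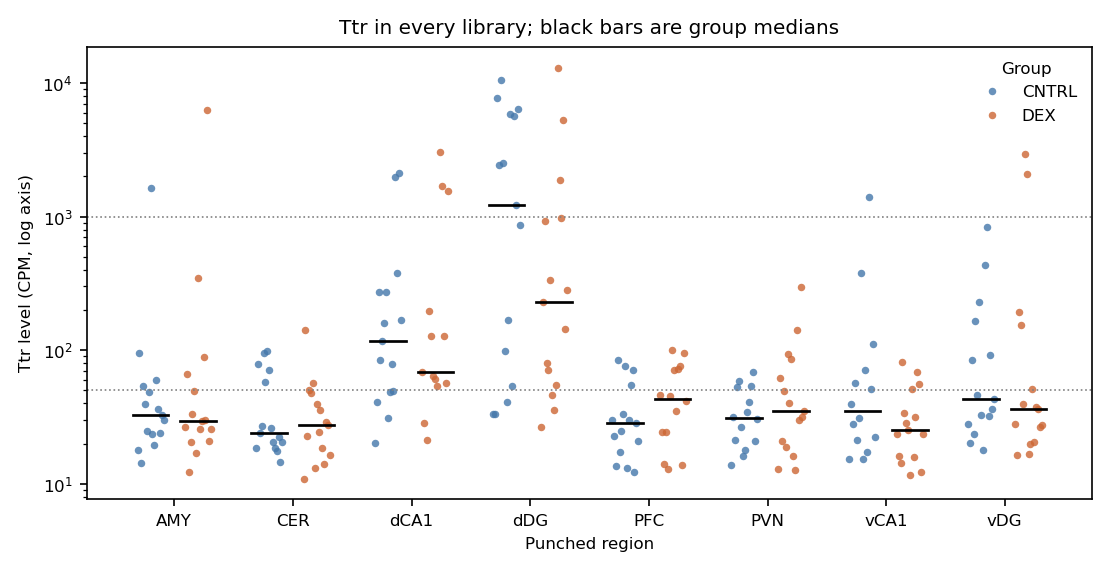
Ttr level (CPM, log axis) of every library by punched region and group, with group medians as black bars and dotted lines at 50 and 1000 CPM. In dDG the libraries of both groups spread from under 50 CPM to 13059 CPM, whereas in CER, PFC and PVN no library passed 299.4 CPM.

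In dDG, Ttr of the CNTRL group had a lowest value of 33.4, a median of 1227 and a highest value of 10624 CPM (n = 15). In the DEX group the lowest value was 26.7, the median 231.6 and the highest 13059 CPM (n = 15). The groups overlapped over their whole range, and the highest library of all was a DEX library (replicate 10). In dCA1 the CNTRL libraries ran from 20.2 through a median of 117.5 to 2107 CPM (n = 15) and the DEX libraries from 21.2 through 68.7 to 3071 CPM (n = 13). There too a few libraries of either group stood far above their group's median.

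In AMY, in vDG and in the CNTRL group of vCA1, a few libraries stood far above the median of their group. In AMY the CNTRL median was 32.8 CPM with 1 library at 1627 CPM (replicate 8), and the DEX median was 29.6 CPM with 1 library at 6276 CPM (replicate 13). In vDG the CNTRL median was 43.2 CPM and the highest library 832.1 CPM, against a DEX median of 36.1 CPM with 2 libraries at 2966 and 2097 CPM (replicates 6 and 7). In vCA1 the CNTRL median was 35.4 CPM, with 1392 CPM in replicate 11 and 375.5 CPM in replicate 7. The DEX libraries of vCA1 lay between 11.7 and 82.3 CPM (median 25.1, n = 15), so the groups overlapped but no DEX library reached the 2 high CNTRL libraries.

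A further 12 markers of plexus epithelium that are not among the 7 genes (Kcnj13, Kcne2, Otx2, Slc4a5, Tmem72, Steap1, Aqp1, Mfrp, F5, Cldn2, Lbp and Wfikkn2) were read as a second measure. With a minimum of 3 of the 12 markers at 1 count or more, 202 libraries counted as holding plexus RNA, among them 23 of 29 PFC libraries, so this minimum did not separate the punches. With a minimum of 8, which was chosen after seeing the data, 40 libraries were left: 17 in dDG, 9 in vDG, 7 in dCA1, 3 in AMY, 2 in vCA1, and 1 each in CER and PVN. All 21 libraries with Ttr above 1000 CPM held between 10 and 12 of the markers. The summed level of the 12 markers in dDG ran from 1.97 to 776.1 CPM in CNTRL (median 141.1) and from 9.54 to 1122 CPM in DEX (median 30.6).

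Single markers differed in how far they belonged to Ttr-rich punches. In the libraries with Ttr under 50 CPM, Kcne2, which codes for a potassium channel subunit, had a median of 0 in all 8 regions, and Mfrp had no count at all. Otx2, a transcription factor also used in other brain regions, had a median of 11.7 CPM in PVN and was counted in all 29 PVN libraries. Kcnj13, a potassium channel gene, and Lbp had medians of 6.22 and 9.06 CPM in such vDG libraries. The 9 vDG libraries with 8 or more markers included 3 with Ttr under 50 CPM, and counts of markers are read here beside Ttr rather than in its place.

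The 21 plexus-rich libraries came from 17 animals, 4 of which gave 2 each. In CNTRL replicates 12 and 14 and in DEX replicate 11, both dCA1 and dDG were plexus-rich, and in DEX replicate 13 AMY and dDG were. Over all 28 pairs of regions, Ttr of one region was compared with Ttr of the other in the same animal, on log2(CPM + 1) after subtracting the mean of each region and group. None of the 28 relations passed after adjustment. The largest by r were AMY with PVN (Pearson r = 0.47, permutation p = 0.0121, adjusted p = 0.245; rho = 0.42, p = 0.0239, adjusted p = 0.195; n = 29, r = 0.49 without the 2 animals farthest from the median) and dCA1 with dDG (r = 0.45, permutation p = 0.0175, adjusted p = 0.245; rho = 0.51, p = 0.00642, adjusted p = 0.18; n = 28, r = 0.37 without 2 animals). By rho, dCA1 with vCA1 (rho = 0.45, permutation p = 0.0205, adjusted p = 0.195, n = 27) lay above AMY with PVN. Plexus-rich dDG libraries were found on each of the 5 dates of punching, from 1 to 4 libraries a date.

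Within dDG the other 6 genes rose with Ttr along a nearly straight line, Igf2 least closely. Over its 30 libraries, a straight line on Ttr in CPM took up 99.2% of the variance of Enpp2, 97.6% of that of Kl, 97.4% of Sostdc1, 94.4% of Folr1, 91.2% of Clic6 and 80.4% of Igf2. For every 1000 CPM of Ttr the line rose by 421.3 CPM of Enpp2, 21.8 CPM of Sostdc1, 19.1 CPM of Igf2, 16.7 CPM of Kl, 15.4 CPM of Clic6 and 7.19 CPM of Folr1. At Ttr of 0 the lines lay at 132.7 CPM of Enpp2, 44.7 CPM of Igf2 and 14.9 CPM of Kl, but within 2.45 CPM of 0 for Folr1, Clic6 and Sostdc1. These lines are descriptions that rest mainly on the plexus-rich libraries, and all genes of a library share its depth and its punch.

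**Figure D2:**
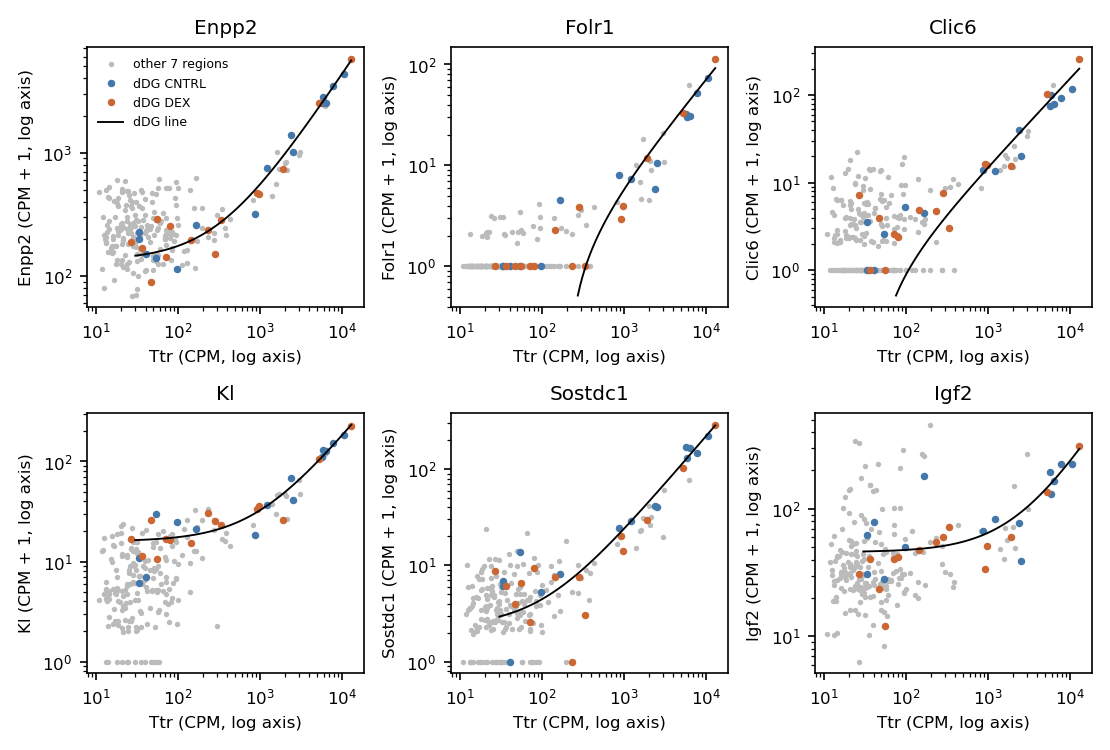
Level of each of the 6 other genes (CPM + 1, log axis) against Ttr (CPM, log axis) in all libraries, with dDG libraries coloured by group, other regions in grey and the straight line fitted in dDG in black. Enpp2, Kl and Igf2 flatten at low Ttr, whereas Folr1 falls to 0.

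The ratio of each gene to Ttr can be read directly in the plexus-rich libraries, without a fit. In the 8 CNTRL libraries of dDG the median was 449.8 CPM of Enpp2 per 1000 CPM of Ttr (396.3 to 612.5), and in the 3 DEX libraries it was 441.6 (391.8 to 473.4). The DEX libraries lay within the CNTRL range for Igf2 (median 25.4 against 27.1). Of the other genes, 1 DEX library lay above the CNTRL range for Folr1 (8.63) and 2 for Clic6 (19.8 and 19.4, against a highest CNTRL value of 16.8). DEX replicate 11 lay below the CNTRL range for Enpp2, for Kl (13.3 against a lowest CNTRL value of 15.8) and for Sostdc1 (15.3 against 15.8). With 3 libraries in DEX that were picked out by their Ttr, no test was made of these ratios.

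Sostdc1 per Ttr was lower in plexus-rich libraries of some other regions. In dDG it lay between 15.3 and 29.9 CPM per 1000 CPM of Ttr (median 21.0, 11 libraries). In the 5 plexus-rich libraries of AMY, vCA1 and vDG it lay between 6.31 and 13.6 (median 12.0), below every dDG library, and in the 5 of dCA1 between 14.0 and 20.1. For each of these 10 libraries a level was then set from the slope of the dDG line times its Ttr, plus, in place of the dDG intercept, the median of the gene in its own region's libraries with Ttr under 50 CPM. Sostdc1 lay under that level in all 10 libraries, at 0.28 to 0.87 times its value (median 0.58). For Enpp2 the same ratio had a median of 0.75 (0.62 to 1.04), for Folr1 0.60 (0.25 to 1.41), for Clic6 0.63 (0.44 to 1.23), for Kl 1.01 (0.51 to 1.41) and for Igf2 0.95 (0.65 to 1.36). The 10 libraries mix both treatment groups and 4 regions, and the difference was not tested.

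Correlations over the libraries of a region, on log2(CPM + 1) after subtracting group means, placed the 6 genes with Ttr in dDG, and 5 of them, without Igf2, in dCA1 and vDG. In dDG, r with Ttr was 0.94 for Folr1, 0.94 for Clic6, 0.93 for Enpp2, 0.90 for Kl, 0.86 for Sostdc1 and 0.73 for Igf2, and rho was between 0.73 and 0.95 (n = 30). For each of these 6 relations the permutation p of r was 1e-05, the smallest the resampling can give, and 4.8e-05 after adjustment over the 72 relations computed. Without the 2 libraries farthest from the median of Ttr, r was still between 0.69 and 0.93. In dCA1, r was 0.88 for Enpp2, 0.86 for Folr1, 0.80 for Sostdc1, 0.72 for Clic6 and 0.68 for Kl (n = 28; adjusted permutation p between 4.8e-05 and 0.000187). Igf2 in dCA1 had r = 0.41 (adjusted permutation p = 0.0505), just short of the threshold.

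In vDG, r was between 0.68 and 0.85 for the 5 genes (n = 30, adjusted permutation p between 4.8e-05 and 0.000187; between 0.41 and 0.68 without 2 libraries), and 0.15 for Igf2 (adjusted permutation p = 0.553). In AMY most relations rested on the 2 libraries farthest from the median. Enpp2 had r = 0.79 with Ttr there (adjusted permutation p = 0.00114; rho = 0.30, adjusted p = 0.166; n = 30), and r = 0.11 without those libraries. Clic6 in AMY went from r = 0.55 to 0.06 and Sostdc1 from 0.55 to 0.07, while Kl kept r = 0.43 of 0.78. In vCA1 4 of the 6 genes passed by r (n = 29): Clic6 (0.73, and 0.46 without the 2 farthest libraries), Folr1 (0.64 and 0.29), Sostdc1 (0.50 and 0.21) and Enpp2 (0.47 and 0.17), with adjusted permutation p between 9.82e-05 and 0.0173. By rho only Clic6 passed there (0.57, adjusted permutation p = 0.00541), and Kl went from r = 0.21 to -0.26. In PVN Folr1 (r = 0.60, adjusted permutation p = 0.00148, and 0.42 without 2 libraries) and Enpp2 (0.49, adjusted permutation p = 0.0123, and 0.38) passed, while the other 4 genes lay between -0.05 and 0.14 (n = 29). In PFC and CER no member's correlation with Ttr passed after adjustment: r lay between -0.03 and 0.38 in PFC (Igf2 highest, adjusted permutation p = 0.066) and between 0.04 and 0.28 in CER.

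Most of the genes most like Ttr over all libraries were on the lists of plexus genes. Among 15063 genes with at least 100 counts, ranked by r of log2(CPM + 1) after subtracting each region and group mean, the 15 nearest were Folr1 (r = 0.81), Kcne2 (0.79), Enpp2 (0.79), Prr32 (0.78), Steap1 (0.76), F5 (0.75), 1500015O10Rik (0.74), Cldn2 (0.74), Tmem72 (0.74), Calml4 (0.70), Slc4a5 (0.70), Kcnj13 (0.69), Drc7 (0.68), Wfdc2 (0.68) and Clic6 (0.68). They included 3 of the 7 genes, 7 of the 12 markers and 2 of 12 further plexus genes, while Prr32, Drc7 and Wfdc2 were in no list. Sostdc1 ranked 17th (r = 0.66), Kl 20th (0.60) and Igf2 72nd. Only 32 genes had r above 0.5, so the likeness to Ttr fell off quickly. The ranking pools regions that differed. In dDG, PFC and CER, r was 0.94, -0.03 and 0.05 for Folr1 and 0.94, 0.08 and -0.22 for Slc4a5. It was higher in PFC for Prr32 (0.46) and in CER for F5 (0.57).

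Where Ttr was low, the 6 genes went separate ways. In the 135 libraries with Ttr under 50 CPM, taken as the level of the tissue beside the plexus and given as a description, Folr1 had a median of 0 in each of the 8 regions and no count in any such library of dDG or vCA1. Enpp2 was highest in CER (median 456.3 CPM, 22 libraries) and AMY (298.9, 22 libraries) and lowest in dCA1 (116.7, 7 libraries). Igf2 was highest in vDG, at a median of 140.0 CPM (33.7 to 339.7, 19 libraries), against 21.3 to 40.0 CPM in the other 7 regions. Kl had medians of 14.8 CPM in dCA1, 10.8 in vDG, 10.1 in dDG and 9.70 in vCA1, and of 2.03 to 5.35 CPM in AMY, PFC, PVN and CER. Clic6 was highest in AMY (8.70 CPM, counted in each of the 22 libraries) and PVN (4.45 CPM). Sostdc1 had medians between 1.67 and 5.13 CPM in the 8 regions, while single libraries ran from 0 to 22.7 CPM, the highest in AMY.

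**Figure D3:**
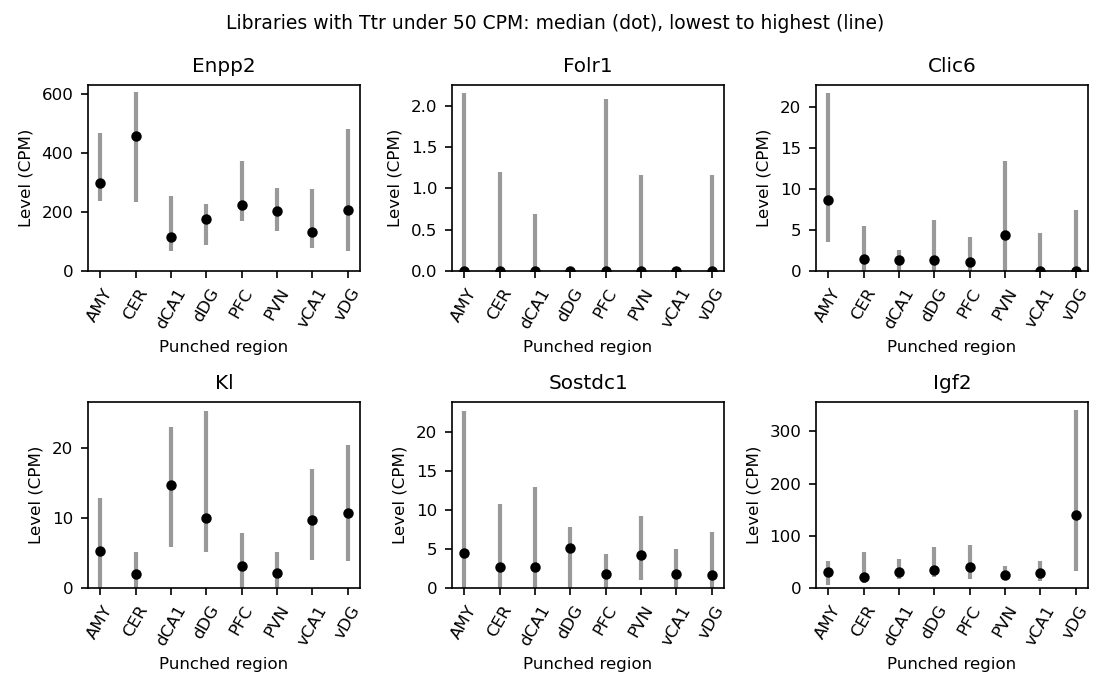
Level (CPM) of the 6 other genes in the libraries with Ttr under 50 CPM, by punched region; dots are medians and lines run from the lowest to the highest library. Enpp2 is highest in CER, Clic6 in AMY, Igf2 in vDG and Kl in dCA1, vDG, dDG and vCA1, while Folr1 has a median of 0 throughout.

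Enpp2 and Igf2 also moved with markers of other cells. The summed level of 9 oligodendrocyte genes (among them Mbp and Mog) correlated with Enpp2 after adjustment, by both r and rho, in PVN, vDG, CER and vCA1. By rho only, it passed in AMY (rho = 0.71, adjusted permutation p = 0.000222, r = 0.36) and dCA1 (rho = 0.43, adjusted permutation p = 0.047, r = 0.24). In dDG r was 0.003 and rho 0.08, and in PFC r went from 0.35 to -0.21 without 2 libraries. In PVN r was 0.66 (adjusted permutation p = 0.00036; rho = 0.62, adjusted p = 0.0018; n = 29; r = 0.62 without 2 libraries) and in vDG 0.62 (adjusted permutation p = 0.0006; rho = 0.67, adjusted p = 0.00036; n = 30; r = 0.56 without 2). In CER it was 0.61 (adjusted permutation p = 0.00171; rho = 0.47, adjusted p = 0.0246; n = 30; r = 0.51 without 2) and in vCA1 0.58 (adjusted permutation p = 0.00171; rho = 0.64, adjusted p = 0.00076; n = 29; r = 0.50 without 2). The summed level of 11 leptomeningeal genes (among them Dcn, Col1a1 and Slc6a13) correlated with Igf2 in vDG (r = 0.89, adjusted p = 4.8e-05; rho = 0.91, adjusted p = 9e-05; n = 30; r = 0.87 without 2), where it ran from 136.0 to 939.8 CPM. In dDG the leptomeningeal sum correlated with Igf2 as well (r = 0.77, adjusted p = 4.8e-05; rho = 0.81, adjusted p = 9e-05; n = 30). It also correlated with Igf2 in AMY (r = 0.76, and 0.37 without 2 libraries), PFC (0.72), CER (0.62) and dCA1 (0.46, and 0.26 without 2 libraries). The adjusted permutation p of r lay between 7.58e-05 and 0.0226 in these regions. In PVN and vCA1 r was -0.04 and 0.06. Whether oligodendrocytes and leptomeningeal cells set the levels of Enpp2 and Igf2 was not tested.

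Levels were then compared among the 8 regions in the CNTRL animals alone, with the animal as a block (edgeR quasi-likelihood test, Benjamini-Hochberg adjustment over 10451 genes in each of the 28 pairs of regions). Regions differ in a large share of genes: 31.4% of all tests passed. Of 140 tests on members (Folr1 and Clic6 did not pass the filter on low counts), 79 passed. Ttr was higher in dDG than in each of the 7 other regions, with log2 differences of 3.00 to 6.34 and adjusted p of at most 0.000338, against 29.2% of all genes in dDG pairs. Enpp2, Kl and Sostdc1 were also higher in dDG than in all 7 others, by at least 1.20, 1.38 and 2.34 (log2). Below dDG, the neighbouring regions in the order of median Ttr (dCA1, vDG, vCA1, AMY, PVN, PFC, CER) did not differ from each other beyond their spread: the closest to the threshold was dCA1 over vDG, at 1.52 ± 0.62 (SE, log2, adjusted p = 0.0632). Farther apart in that order, Ttr in dCA1 was higher than in AMY, PVN, PFC and CER, by 1.78 to 3.33 (log2, largest adjusted p = 0.0303), and in vCA1 and vDG it was higher than in PVN, by 1.93 and 1.82 (adjusted p = 0.0294 and 0.038). The medians of vCA1, vDG and PVN were close, at 35.4, 43.2 and 31.1 CPM. Without its highest library (replicate 11 in both), the mean went from 160.6 to 65.9 CPM in vCA1 and from 141.5 to 92.1 CPM in vDG. No fit among regions was made without these libraries.

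For Igf2 the order was another. It was highest in vDG (160.3 ± 89.6 CPM, SD, n = 15) and dDG (108.3 ± 70.9 CPM, n = 15). The difference between them did not pass (log2 0.51 ± 0.21, SE, adjusted p = 0.0847), and each was higher than all 6 remaining regions; the background was 25.3% of all genes in vDG pairs. Enpp2 came next after dDG in CER (490.6 ± 101.0 CPM, SD, n = 15), where it was higher than in 5 of the 7 other regions (background 40.5% of all genes), and in AMY (393.3 ± 190.9 CPM, n = 15), where it was higher than in 4 (background 29.3%). Between CER and AMY the difference was within the spread (log2 0.29 ± 0.28, SE, adjusted p = 0.518). Kl in dCA1 (21.0 ± 9.17 CPM, SD, n = 15) was higher than in 5 of the 7 other regions (background 31.3%).

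Between DEX and CNTRL, 1 of the 27 tests on members passed. Ttr, Enpp2 and Igf2 had enough counts to be tested in all 8 regions and Kl in dCA1, dDG and vDG; Folr1, Clic6 and Sostdc1 passed the filter in none. An adjusted p under 0.05 (edgeR quasi-likelihood test, Benjamini-Hochberg over all genes tested in the region) was reached by 5.62% of all genes in AMY, 6.18% in CER, 4.68% in dCA1, 3.7% in dDG, 6.14% in PFC, 5.63% in PVN, 5.45% in vCA1 and 3.93% in vDG. The member that passed was Ttr in vCA1, where 2.04% of all genes were called lower. At an unadjusted p under 0.05 there were 5 of the 27; DESeq2 and limma with voom weights called none of the 27, with 6 and 3 at an unadjusted p under 0.05.

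Ttr in vCA1 fell by 2.27 on the log2 scale (SE 0.56, adjusted p = 0.00692; 14 CNTRL and 15 DEX libraries). This call rested on 1 library: without CNTRL replicate 11, whose Ttr was 1392 CPM, the change was -0.95 ± 0.39 (SE, adjusted p = 0.199), while leaving out any other of the 29 libraries kept it (-2.44 to -0.95 over all 29). It was not called by DESeq2 (-0.94, adjusted p = 0.257), by limma with voom weights (-0.90, adjusted p = 0.369) or with the replicate number as a block (-0.98 ± 0.37, SE, adjusted p = 0.15). By a two-sided permutation test of log2(CPM + 1) the groups (5.72 ± 1.84, SD, n = 14, and 4.84 ± 0.87, n = 15) did not pass after adjustment over the 8 regions (permutation p = 0.107, adjusted p = 0.651). Ttr was lower in DEX in the mean of each of the 4 dates of punching with at least 2 libraries of each group (differences of -1.45 to -0.80), and DEX was higher in 5 of 14 pairs of the same number.

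In vCA1 the summed level of the 12 markers ran from 1.25 to 86.6 CPM in CNTRL (median 6.54) and from 1.24 to 16.6 CPM in DEX (median 10.1), with CNTRL replicate 11 at the top and holding 10 of the 12. CNTRL replicate 7, the library with the next highest Ttr, held 5 of the markers at a summed level of 11.8 CPM, within the range of the DEX libraries. When the log2 summed level of the markers was a covariate, Ttr in vCA1 was still lower in DEX (-1.47 ± 0.37, SE, adjusted p = 0.0095), and Enpp2 was lower as well (-0.51 ± 0.14, adjusted p = 0.0259), against 5.4% of all genes in that fit. When the 2 vCA1 libraries with 8 or more markers were left out, Ttr changed by -1.03 ± 0.41 (SE, adjusted p = 0.176).

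Ttr in PFC moved the other way and by less. The CNTRL libraries had a lowest value of 12.3, a median of 28.6 and a highest of 84.3 CPM (n = 15), and the DEX libraries 13.0, 43.5 and 101.0 CPM (n = 14), overlapping throughout. Without a block the change was 0.41 ± 0.27 (SE, log2, adjusted p = 0.586). Libraries of the same number shared a plate, and with the number as a block Ttr was higher in DEX by 0.56 ± 0.14 (SE, adjusted p = 0.00686, against 8.02% of all genes in that fit). With date of punching and plate as factors in place of the number the change was 0.47 ± 0.18 (SE, adjusted p = 0.13), not called. With the marker level as a covariate and no block it was 0.33 ± 0.30 (adjusted p = 0.777), and with the block and the marker level together, a fit added after seeing the data, 0.45 ± 0.16 (adjusted p = 0.0837). Ttr was higher in DEX in 13 of 14 pairs; in the pair of number 6 it went from 25.0 to 13.0 CPM. The mean difference by plate was positive in 4 of 4 plates and that by date in 2 of 4 dates. The plexus markers had few counts in these libraries. Over all 29, Mfrp had no count, Steap1 and Tmem72 had 3 counts each, Kcne2 4, Slc4a5 6, F5 and Cldn2 9 each, Otx2 16, Aqp1 20, Wfikkn2 24, Kcnj13 27 and Lbp 56, the last in 24 of the libraries. The summed level of the 12 was 0 to 13.0 CPM in CNTRL and 4.41 to 18.1 CPM in DEX.

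**Figure D4:**
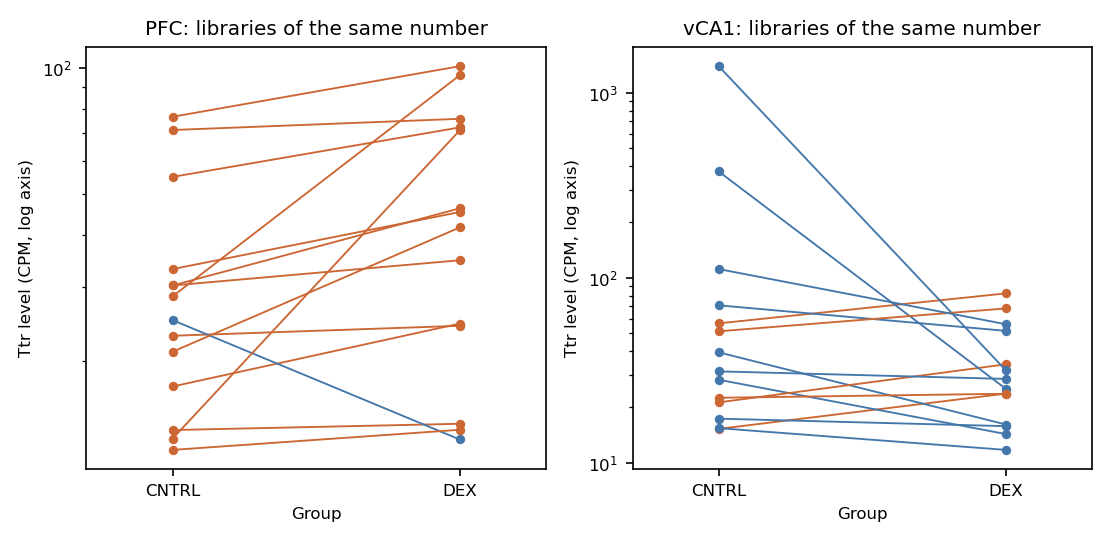
Ttr level (CPM, log axis) of CNTRL and DEX libraries of the same number, joined by lines, in PFC (left) and vCA1 (right); orange lines rise and blue lines fall. In PFC 13 of 14 pairs rise and in vCA1 5 of 14 do, with CNTRL replicates 11 and 7 at 1392 and 375.5 CPM far above the rest.

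In the other 6 regions the change of Ttr did not pass with all libraries, and in AMY, vDG, dDG and dCA1 its sign turned under at least 1 of the alternatives run. In AMY it was 1.69 ± 0.83 (SE, log2, adjusted p = 0.362) and became -1.33 (adjusted p = 0.321) without DEX replicate 13, with CNTRL replicate 8 kept. Without the libraries of both groups that held 8 or more markers, the change in AMY was negative but far smaller, as given below. In vDG it was 1.41 ± 0.75 (adjusted p = 0.503), and -1.44 ± 0.54 (adjusted p = 0.169) with the marker level as a covariate. It was 0.47 ± 0.69 (adjusted p = 0.917) without the library with the highest plexus level (DEX replicate 6) and 0.02 ± 0.70 (adjusted p = 1.00) with the replicate block. In dDG, where CNTRL held 8 of the 11 plexus-rich libraries, it was -0.90 ± 0.82 (adjusted p = 0.768) and came to -0.25 ± 0.33 (adjusted p = 0.86) with that covariate, but to -1.95 ± 0.79 (adjusted p = 0.217) without DEX replicate 10, -1.90 ± 0.86 (adjusted p = 0.293) with date of punching and plate as factors and -1.55 ± 0.69 (adjusted p = 0.234) with the replicate block. In dCA1 the change was 0.45 ± 0.67 (adjusted p = 0.897), and -0.24 ± 0.66 (adjusted p = 0.95) without the library with the highest plexus level. In CER it was -0.17 ± 0.32 and stayed between -0.24 and -0.12 under the alternatives run. In PVN it was 0.91 ± 0.34 (adjusted p = 0.134), with DEX replicates 13, 11, 6 and 8 at 299.4, 141.3, 93.6 and 85.5 CPM above a highest CNTRL library of 68.3 CPM, and 0.43 ± 0.28 (adjusted p = 0.553) without replicate 13. Replicate 13 held 9 of the 12 markers, and replicates 11, 6 and 8 held 2, 3 and 6.

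**Figure D5:**
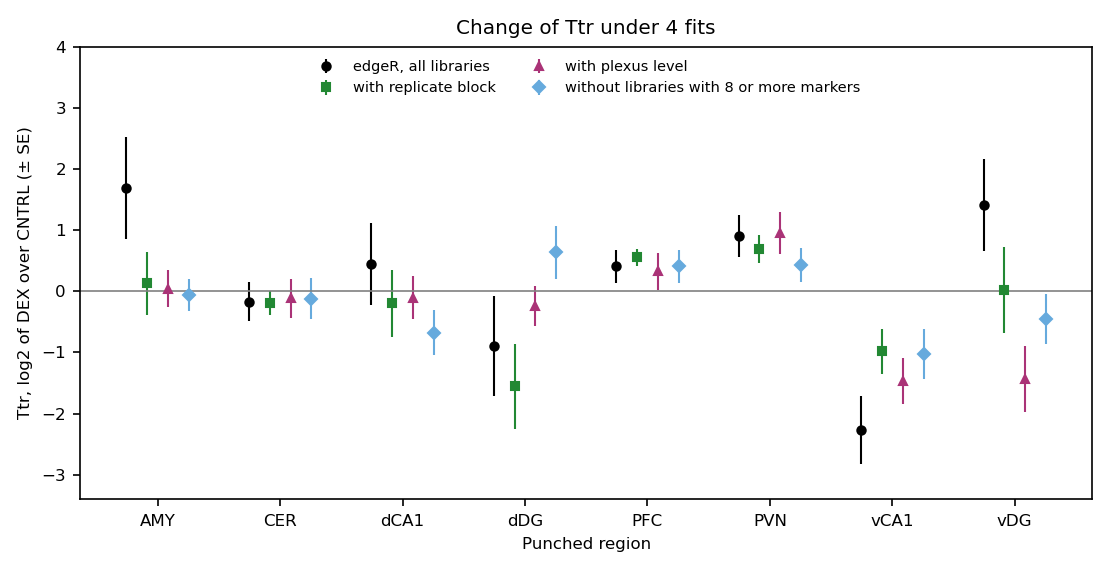
Change of Ttr (log2 of DEX over CNTRL, with its SE) by region under 4 fits: all libraries, with the replicate number as a block, with the summed marker level as a covariate, and without libraries holding 8 or more of the 12 markers. The sign turns between fits in AMY, dCA1, dDG and vDG, and stays positive in PFC and PVN and negative in CER and vCA1.

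Tested directly, no region passed for a difference in the summed level of the 12 markers between the groups. That sum correlated with Ttr in dDG (r = 0.92), AMY (0.87, and 0.37 without 2 libraries), dCA1 (0.79), vDG (0.71) and vCA1 (0.60). The adjusted permutation p there was at most 0.00171. In CER, PFC and PVN it did not (r = 0.22, 0.03 and 0.03, adjusted permutation p = 0.332, 0.917 and 0.917), so there it cannot show a difference in plexus RNA. The log2(1 + summed CPM) of the 12 markers was compared by two-sided permutation tests. It had its smallest p in PFC (2.62 ± 1.05, SD, n = 15, in CNTRL and 3.24 ± 0.53, n = 14, in DEX; permutation p = 0.0549, adjusted p = 0.314) and in vDG (4.89 ± 0.74, n = 15, and 5.56 ± 1.21, n = 15; permutation p = 0.0784, adjusted p = 0.314). In dDG it was 6.29 ± 2.62 in CNTRL and 5.54 ± 1.84 in DEX (n = 15 each, permutation p = 0.366, adjusted p = 0.912). Within dates of punching, DEX was higher in vDG on 3 of 4 dates and in dDG on 1 of 4. These tests did not use the pairing by number. The sum was higher in DEX in 8 of 14 pairs in PFC, 10 of 15 in vDG and 6 of 15 in dDG. The difference in dDG was within the spread between punches; tested as a difference of medians it had an unadjusted permutation p of 0.033 and an adjusted p of 0.264.

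Igf2, the secreted growth factor, did not pass in any region with all libraries. In dDG its CNTRL libraries ran from 26.9 through a median of 78.4 to 225.0 CPM and its DEX libraries from 11.1 through 46.9 to 311.9 CPM (n = 15 each). All DEX libraries except replicate 10 lay at or under 135.2 CPM, and that library was the one with the highest Ttr of the series. The change was -0.67 ± 0.34 (SE, log2, adjusted p = 0.409) and became -1.11 ± 0.29 (adjusted p = 0.0195, against 3.7% of all genes) without it. With the marker level as a covariate it was -0.50 ± 0.21 (adjusted p = 0.239), and with Ttr as a covariate -0.45 ± 0.23 (adjusted p = 0.412). The leptomeningeal sum in dDG had a median of 210.7 CPM in CNTRL (62.1 to 461.0) and 160.6 CPM in DEX (65.6 to 335.5), and its part in the result was not tested.

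Enpp2, the secreted enzyme, was nearest to a call in vCA1. There its CNTRL libraries ran from 109.5 through a median of 185.5 to 448.6 CPM (n = 14) and its DEX libraries from 77.9 through 135.3 to 278.8 CPM (n = 15). The groups overlapped, and the change was -0.50 ± 0.16 (SE, log2, adjusted p = 0.0576). It was called without the filter on low counts (-0.50, adjusted p = 0.0493, against 3.76% of all genes) and was -0.31 ± 0.15 (adjusted p = 0.314) with Ttr as a covariate. Leaving out 1 of the 29 libraries at a time gave -0.61 to -0.36: it was called in 7 of these fits (without CNTRL replicate 2, 6, 10, 13 or 15 or DEX replicate 3 or 12), with the lowest adjusted p of 0.00825 without DEX replicate 3 and the highest, 0.159, without CNTRL replicate 11. Of the 9 oligodendrocyte genes tested in vCA1, 2 fell (Opalin by 1.35 ± 0.25 and Ermn by 0.84 ± 0.20, SE), and the median of the 9 was -0.45 against -0.01 over all genes; the summed level ran from 1697 to 4923 CPM in CNTRL and from 1124 to 5151 CPM in DEX. Their part in the value of Enpp2 was not tested.

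Kl, the klotho coreceptor, was tested in dCA1, dDG and vDG. In dDG it changed by -0.61 ± 0.44 (SE, log2, adjusted p = 0.677), from a CNTRL median of 36.1 CPM (5.14 to 185.0) to a DEX median of 24.6 CPM (9.68 to 225.4), with Ttr as a covariate by 0.00 ± 0.19 (adjusted p = 0.997) and without DEX replicate 10 by -1.19 ± 0.41 (adjusted p = 0.112). In dCA1 and vDG its changes were 0.08 ± 0.23 and 0.13 ± 0.32. Sostdc1 in dDG had medians of 28.2 CPM in CNTRL and 6.62 CPM in DEX, Clic6 13.1 and 3.91 CPM, and Folr1 6.28 and 0 CPM. In each of the 3 genes the highest library was DEX replicate 10. Folr1 in AMY was called when the filter was dropped (3.14 ± 0.91, SE, adjusted p = 0.0378, against 3.45% of all genes), where 61.98 CPM in DEX replicate 13 stood against a highest CNTRL value of 3.70 CPM.

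Given the level of the 12 markers, without a block, 2 of the 27 tests on members passed, Ttr and Enpp2 in vCA1. In CER, PFC and PVN that level did not correlate with Ttr, so these fits cannot take plexus RNA into account there. In those fits 5.7% of all genes passed in AMY, 6.15% in CER, 4.98% in dCA1, 3.5% in dDG, 5.06% in PFC, 5.66% in PVN, 5.4% in vCA1 and 4.17% in vDG. With the replicate number as a block beside the marker level, 1 of the 27 passed: Ttr in vCA1 at -1.18 ± 0.29 (SE, adjusted p = 0.0129, against 4.51% of all genes in that fit), while Enpp2 in vCA1 was -0.45 ± 0.13 (adjusted p = 0.0511). Given Ttr itself, none of the 19 tests on the other members did, and the nearest was Enpp2 in PVN (-0.28 ± 0.10, SE, adjusted p = 0.0894). In that region Enpp2 ran from 155.0 to 286.7 CPM in CNTRL and from 134.5 to 312.4 CPM in DEX, so the groups overlapped.

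Whether the response to dexamethasone differed among the 8 regions was tested as an interaction over all libraries. The main fit did not include the animal, although the regions came from the same animals. None of the 6 members tested passed (edgeR quasi-likelihood test, adjusted over 11053 genes, of which 1.17% passed), and 2 had an unadjusted p under 0.05: Ttr (p = 0.0049, adjusted p = 0.208) and Kl (p = 0.0394, adjusted p = 0.641). DESeq2's likelihood ratio test gave Ttr an adjusted p of 0.0508 and also called none, with 1 of 6 at an unadjusted p under 0.05. With the marker level as a covariate, Ttr had an adjusted p of 0.688. With the animal as a block (edgeR quasi-likelihood test), none of the 6 passed, and Ttr had p = 0.0154 (adjusted p = 0.387).

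Among genes that work with the 7, several changed in many regions; over the 8 regions together, 5.17% of all tests passed. Of the thyroxine and retinol genes (12 listed, 59 tests over the 8 regions), 10 tests were higher and 6 lower. Dio2, the enzyme that activates thyroxine, rose in all 8 regions, by 0.53 in PFC up to 2.45 in PVN (log2, largest adjusted p = 0.000113). In PVN its CNTRL libraries lay between 19.3 and 38.6 CPM (median 28.8) and its DEX libraries between 96.3 and 214.1 CPM (median 138.2), without overlap. Slco1c1, a thyroxine transporter of brain vessels and astrocytes, fell in 6 regions (all but dCA1 and dDG), by 0.62 in AMY to 1.04 in PFC. Thrsp, a thyroid hormone responsive gene, rose in PFC and vCA1.

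Of the klotho and FGF genes (9 listed, 40 tests), 8 tests were higher and 6 lower. Fgfr1, an FGF receptor, rose in 7 regions by 0.39 to 0.74 (log2, largest adjusted p = 0.0067), and Fgfr2 fell in 6 by 0.49 to 0.81 (largest adjusted p = 0.0159). Fgfr3 rose in PVN by 0.39. Of the BMP and Wnt genes around Sostdc1 (10 listed, 29 tests), 8 tests were higher and none lower: all 8 were Lrp6, the Wnt coreceptor that Sostdc1 binds, which rose by 0.50 in dCA1 to 0.70 in vDG (largest adjusted p = 0.00111). In vDG Lrp6 went from a median of 84.9 CPM (61.3 to 126.7) to 141.0 CPM (109.4 to 216.4), with overlap between the groups.

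The lysophosphatidate genes around Enpp2 (11 listed, 51 tests) gave no higher and 7 lower tests. Plpp3, which degrades lysophosphatidate, fell in 5 regions by 0.25 to 0.43, and the receptor gene Lpar4 fell in dCA1 (by 0.67) and dDG (by 0.89). Of the IGF genes (11 listed, 63 tests), 3 tests were higher (Igfbp7 in AMY, Igf1r in CER and PFC) and 1 lower (Igfbp5 in dCA1), a share near that over all genes. Of the folate genes (8 listed) none of 20 tests passed in edgeR, 2 had an unadjusted p under 0.05, and DESeq2 and voom called none. Of the other chloride channel genes (4 listed) none of 8 tests passed or had an unadjusted p under 0.05, by edgeR, DESeq2 or voom.

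Markers of other cells moved with treatment beside these genes. Of 6 endothelial genes, 19 of 40 tests were lower and none higher (Flt1 and Slco1a4 fell in all 8 regions), and of 9 oligodendrocyte genes 10 of 70 were lower. None of 48 tests on neuronal genes passed in edgeR, DESeq2 or voom, with 2, 1 and 1 at an unadjusted p under 0.05. Of the 12 further plexus genes, 2 of 37 tests passed, a share near that over all genes: Car12 fell in dCA1 (by 0.83 ± 0.20, SE) and Trpm3 rose in PFC (by 0.49 ± 0.15). The 12 defining markers did not pass the filter on low counts in any region. What part the vascular and oligodendrocyte changes have in the partner genes was not tested.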

How the data were processed

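The deposited table held raw counts of molecular tags per gene and library. Per the labels' protocols, libraries were made with a QuantSeq 3' kit with unique molecular identifiers. Per the submitters' processing notes, FastQC 0.11.4, cutadapt, UMI-tools 0.5.4, STAR 2.6.0a, featureCounts 1.6.4, DESeq2 1.30.1, R 4.0.5 and the mm10 build were used; settings are not given in the sources used here. The deposited log2 tables, per the file headers variance-stabilised, lack 7 of the libraries and were used only as a check.

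Groups came from the labels. Members and gene lists were chosen with earlier results of these data known. DEX was compared with CNTRL in each region by edgeR 4.0.16 (R 4.3.3; filterByExpr, TMM, quasi-likelihood test), with Benjamini-Hochberg adjustment over all genes tested and a threshold of 0.05. DESeq2 1.42.0 and limma 3.58.1 (voom) were alternatives, as were other scalings, filters, covariates and left-out libraries. The plexus level was log2(1 + summed CPM) of 12 markers outside the 7 genes. Permutation tests used 100000 resamples (numpy 2.4.6, scipy 1.17.1; Python 3.11.15), on log2(CPM + 1). The edgeR fit without a block or covariate was tested on simulated counts modelled on dDG, with no plexus-rich libraries set in. The fits with a block, a covariate or an interaction were not part of that simulation. Library totals of 268538 to 1451422 counts limit the precision of low genes.

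Named genes were the 7 members, the 15 genes most like Ttr, and partner genes that passed in at least 1 region; genes of the cell type lists were named as examples after their values were seen. A gene first listed among the oligodendrocyte markers is not reported here and entered no list, sum or count. Splits of libraries by Ttr (under 50 or above 1000 CPM) are descriptions with no test. Libraries of the same number in both groups shared a plate in 115 of 115 pairs and a date of punching in 109, per the labels, so the number was used as a block; deviations from group means had a median correlation of 0.17 in such pairs and -0.02 in others, and 73 of 115 pairs were over 0.1 (10 of 14 in PFC, 6 of 14 in PVN, and 4 of 14 in vCA1, where the median was 0.05).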

Additional observations from a re-analysis of the deposited data

How the results depend on the processing

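Ttr in DEX against CNTRL kept its sign in CER, PFC, PVN and vCA1 under the alternatives run there. In AMY it turned to -0.31 without libraries holding at least 3 of the 12 markers, to -0.061 without those holding at least 8 (an alternative added after seeing the data) and to -1.33 without the library with the highest plexus level. In dCA1 it turned to -0.10 with the plexus level as a covariate, to -0.67 without libraries with at least 8 markers and to -0.24 without the highest library. In dDG it turned to 0.64 without libraries with at least 8 markers. In vDG it turned to -0.77 by DESeq2, to -0.14 by voom, to -1.44 with the covariate and to -0.45 without libraries with at least 8 markers.

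The call in vCA1 was lost by DESeq2 (-0.94, adjusted p = 0.257), by voom (-0.90), without libraries with at least 3 markers (-0.38) or 8 markers (-1.03), without the highest library (-0.95) and without the highest of each group (-1.03). Leaving out 1 library at a time gave -2.44 to -0.95, with adjusted p from 0.00413 to 0.199, and the call was lost without CNTRL replicate 11. In PVN, dropping libraries with at least 3 markers gave 1.95 (adjusted p = 0.000519) from 2 CNTRL libraries and 1 DEX library, which has no spread of its own and was assumed to vary like the others. The same drop could not be run in CER, dDG and vDG, where too few libraries were left.

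With the replicate number as a block, Ttr was 0.56 in PFC (called), -0.98 in vCA1 (not called) and -0.20 in dCA1 (sign turned). The block changed no other call on a member. With the block and the plexus level together, an alternative added after seeing the data, Ttr was -1.18 in vCA1 (called), -0.22 in dCA1 and -1.33 in vDG (signs turned).

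Among the others, Enpp2 in dDG turned to 0.22 and Kl in dDG to 0.071 without libraries with at least 8 markers, and Kl in dDG came to 0.00242 with Ttr as a covariate. The number of members called became 1 in AMY without a filter (Folr1), 1 in dCA1 without libraries with at least 3 markers (Enpp2, from 1 CNTRL library, assumed to vary like the others, and 3 DEX libraries), 1 in dDG without the highest library or the highest of each group (Igf2), 1 in PFC with the block and 1 in PVN without libraries with at least 3 markers (the fit with 1 DEX library). In vCA1 it became 2 without a filter and with the plexus covariate, and 0 by DESeq2, voom, the block and each setting that dropped libraries by their markers; it was also 0 with Ttr as a covariate, where Ttr itself has no test. With Ttr in place of the plexus level as a covariate, 0 members were called. Libraries counted as holding plexus RNA were 202 at 3 markers, 127 at 5, 40 at 8, and 111 at 3 after thinning to 250000 counts. Apart from settings built to drop libraries, the cause of these changes was not tested.

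Punches with a few counts of each marker limit what can be said: in such libraries, plexus RNA under the level of 3 counts was not detectable at this depth.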
